A study of Rattus norvegicus with 8 samples.

Results

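The serotonin receptor genes described here are Htr3a, Htr3b, Htr1b, Htr1d, Htr1f, Htr2a, Htr4 and Htr7. They were taken by gene symbol, and all 8 were found among the 30560 genes of the matrix, each as a single entry. Their raw counts of unique molecular identifiers (UMIs, each standing for 1 captured RNA molecule) were summed over neuron types, non-neuronal classes and pools. The nuclei came from the nodose ganglia, which hold the cell bodies of sensory neurons of the vagus nerve, of untreated Long Evans rats aged 8 weeks, 18 male and 18 female. Each of the 12 pools combined ganglia of 1 side from 6 rats, with 3 pools for each sex and side, so a pool is not 1 animal and the left and right pools of a sex probably drew on the same rats. Pools are written ML1 to ML3 (male-labelled, left), MR1 to MR3 (male-labelled, right), FL1 to FL3 (female-labelled, left) and FR1 to FR3 (female-labelled, right). All pools shared strain, age and lack of treatment.

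Serotonin acts on ion channels and on receptors coupled to G proteins. Htr3a and Htr3b encode subunits of the 5-HT3 receptor, a cation channel opened by serotonin, in which the B subunit needs the A subunit to reach the cell surface. Htr1b, Htr1d and Htr1f receptors lower cyclic AMP, Htr2a signals through phospholipase C, and Htr4 and Htr7 raise cyclic AMP. Vagal sensory endings in the gut are excited by serotonin from enterochromaffin cells, and drugs that block the 5-HT3 receptor are used against nausea.

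RefSeq promoter sequences (build GRCr8) were at hand for 5 of the 8 genes. Those of Htr3b, Htr1b and Htr7 are shown because their levels were high in different cells. Htr3b led in nodose-like neurons. Htr1b was highest in myelinating Schwann cells and, at a like level, in a small neuron type. Htr7 led in another small neuron type and was higher in vascular cells than in neurons as a whole. Each is the 250 bases before the annotated start, 5′ to 3′ on the gene's strand. The windows are chr8:58204940-58205189 on the minus strand for Htr3b, chr8:91414816-91415065 on the minus strand for Htr1b, and chr1:243173049-243173298 on the minus strand for Htr7. Capitals mark matches on either strand to GGGCGG, the GC box, or CCAAT.
Htr3b: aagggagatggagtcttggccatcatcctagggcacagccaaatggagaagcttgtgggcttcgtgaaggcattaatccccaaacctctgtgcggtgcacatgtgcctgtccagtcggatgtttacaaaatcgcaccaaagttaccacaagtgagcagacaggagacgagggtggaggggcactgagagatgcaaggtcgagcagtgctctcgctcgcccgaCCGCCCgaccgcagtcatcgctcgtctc
Htr1b: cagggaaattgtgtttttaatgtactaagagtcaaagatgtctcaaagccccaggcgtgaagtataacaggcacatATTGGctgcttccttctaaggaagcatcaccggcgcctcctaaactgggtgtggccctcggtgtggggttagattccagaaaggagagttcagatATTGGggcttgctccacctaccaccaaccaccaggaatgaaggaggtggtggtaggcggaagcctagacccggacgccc
Htr7: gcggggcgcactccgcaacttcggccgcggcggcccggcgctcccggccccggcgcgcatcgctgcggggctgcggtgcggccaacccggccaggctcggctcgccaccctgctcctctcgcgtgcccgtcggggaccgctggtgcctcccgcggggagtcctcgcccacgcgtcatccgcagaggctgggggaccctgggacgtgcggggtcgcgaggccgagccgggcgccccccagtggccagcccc
The Htr3b window held 1 GGGCGG match, which 30.5% of 33469 windows of this length also held at least once. The Htr1b window held 2 CCAAT matches, a motif in 34.0% of windows. The Htr7 window held none of the 6 motifs searched (the others were the TATA box TATAAA, the homeodomain core TAATTA and the E boxes spelled CAGCTG or CACGTG). No matches overlapped in these windows. In the Htr7 window 80.8% of bases were G or C, against 56.8% for Htr3b. A match here is a match of letters and no evidence of binding.

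The matrix held 139965360 UMIs in 36741 nuclei, with 7139364 to 19456287 UMIs per pool in the nuclei kept. Neurons made up 26216 of 36738 kept nuclei (71.4%) and fell into 26 types, numbered n0 to n28 with gaps. Nuclei left unnamed were 13.8% of ML, 19.1% of MR, 13.9% of FL and 18.7% of FR nuclei. By markers, 14 types with 19159 nuclei were like nodose neurons, 4 types with 1859 nuclei were like jugular neurons (the neighbouring somatosensory ganglion), and 8 types with 5198 nuclei passed neither rule. Classes and types are named by likeness to marker genes, and the serotonin receptor genes were kept out of the clustering. Y-linked genes went against the sex label in ML1 (2.88 CPM, counts scaled to a common library total, against 84.4 to 91.3 in the other male-labelled pools) and in FL1 (88.6 CPM, against 2.73 to 3.95 in the other female-labelled pools). Comparisons by labelled sex are therefore also given without ML1 and FL1.

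Htr3a and Htr3b were the members with the most UMIs, 12754 and 24289 in neurons. Levels below are CPM of the summed UMIs of a class or type. CPM is not scaled to transcript length, so levels of different genes are not ranked by it, other than to choose which genes of a list to name. Htr3a stood at 122 ± 21.1 CPM in neurons (mean ± SD, n = 12 pools), with a lowest pool of 85.6 (ML2), a median of 122.97 and a highest of 167 (FL1). Htr3b stood at 235 ± 24.6 CPM, from 204 (FL2) through a median of 227 to 284 (ML3). The pools thus spanned about a 2-fold range for the A subunit and less for the B subunit. Across the 8 sublibraries, into which all pools were mixed, Htr3a ranged from 115 to 134 CPM and Htr3b from 223 to 242 CPM. After every nucleus was thinned to 1000 UMIs (1034 shallower neurons left out), 8.68% of neurons held an Htr3a UMI (exact binomial 95% interval 8.34 to 9.04%) and 15.6% held an Htr3b UMI (15.2 to 16.1%). Without thinning the shares were 24.0% and 33.0%.

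**Figure D1:**
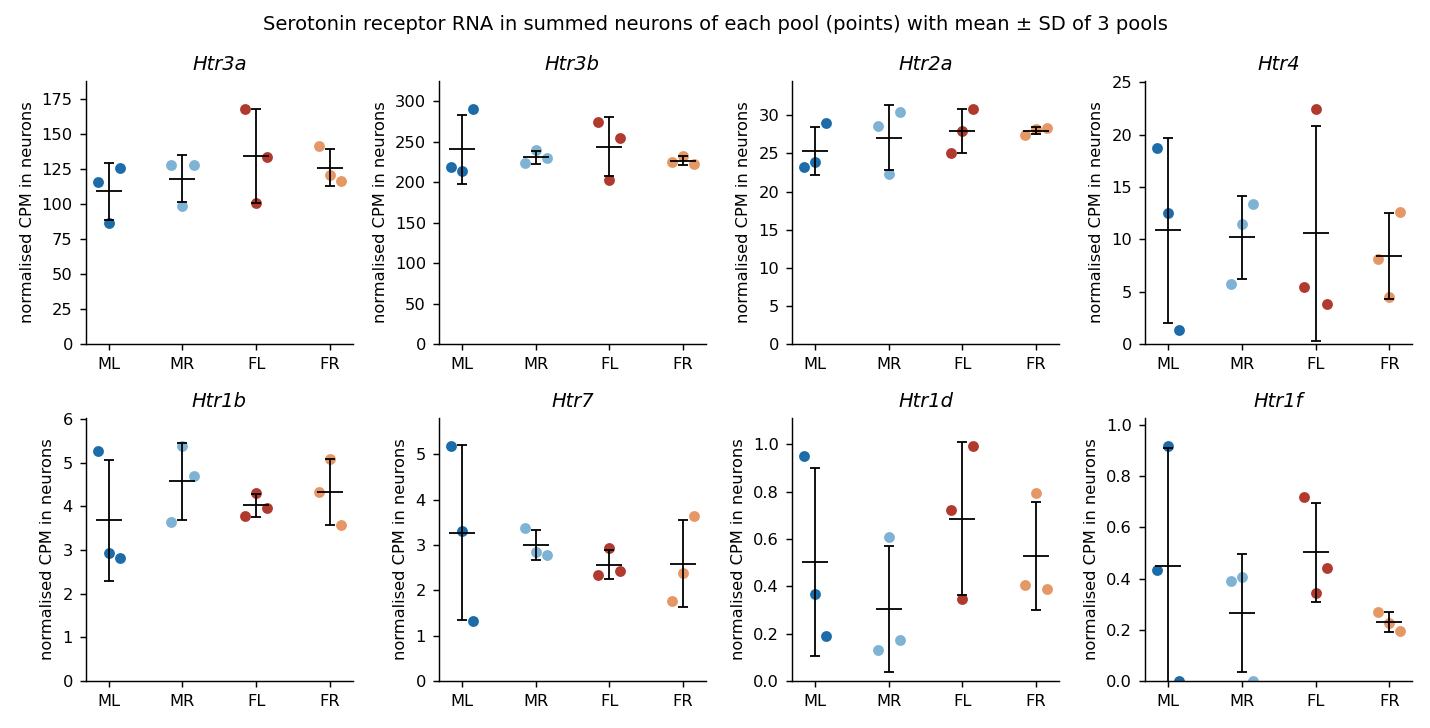
Level of each receptor gene in the summed neurons of each pool (y axis, CPM of the normalised library, linear from 0), with pools grouped by labelled sex and side on the x axis; points are pools, and the black marks are mean ± SD of 3 pools. Htr4 ranges from 1.31 to 18.8 within the left pools labelled male.

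Among neuron types, Htr3a was highest in n9 (led by Itgae, Gpr65 and Cyp26b1), at 271 ± 37.7 CPM, and in n16 (Agtr1a, the angiotensin receptor, with Hmcn1 and Ntrk3), at 262 ± 69.9 CPM (mean ± SD, n = 12 pools). Type n6 (Itm2a, S1pr3, Sez6l) followed at 236 ± 46.2 CPM, and n10 at 217 ± 28.8 CPM. Neighbours in this order differed by less than 1 SD down to n2 (Itgae, Chrm2, Gpr65) at 165 ± 21.0 CPM. The leading gene of n10 is Apoe, a gene of satellite glia, so glial RNA moved with that type. Satellite glia markers summed to 820 CPM in n10 and 628 CPM in n16, against 81.6 CPM in n9 and 83.8 CPM in n6. The part of glial RNA in the Htr3a levels was not tested. After n2 the level dropped to 96.4 ± 21.6 CPM in n4 (Cysltr2, Gdpd4, Shisa6). The 8 types above 100 CPM in Htr3a held 77.7% of the Htr3a UMIs of neurons.

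Htr3b was highest in the same n9, at 629 ± 46.5 CPM, and here the order was wider than the spread between pools. Type n2 came next at 509 ± 61.2 CPM, n5 (Tafa4, Crhr2, Esr1) at 438 ± 54.4 CPM and n10 at 338 ± 58.5 CPM. Each of the first 3 stood more than 1 SD above its next neighbour. In n9, 23.4% of nuclei held an Htr3a UMI and 43.2% an Htr3b UMI at 1000 UMIs, and 73.4% and 91.7% without thinning. At the other end stood n0 (Fhip1a, Kirrel3, Col27a1), the type with the most nuclei, with 26.8 ± 6.74 CPM of Htr3a and 21.0 ± 3.94 CPM of Htr3b, and n3 (Xylt1, Sctr and Cckar, the cholecystokinin A receptor), with 25.7 ± 7.50 and 39.3 ± 11.3 CPM. For comparison, the summed level in myelinating Schwann cells was 21.0 CPM for Htr3a and 36.7 CPM for Htr3b. Type n26, led by the cold channel gene Trpm8, held 2 Htr3a UMIs in 198 nuclei. Nodose-like neurons as a whole stood at 143 ± 20.4 CPM for Htr3a and 278 ± 22.5 CPM for Htr3b, and jugular-like neurons at 50.03 ± 20.3 CPM for Htr3b (n = 12 pools).

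**Figure D2:**
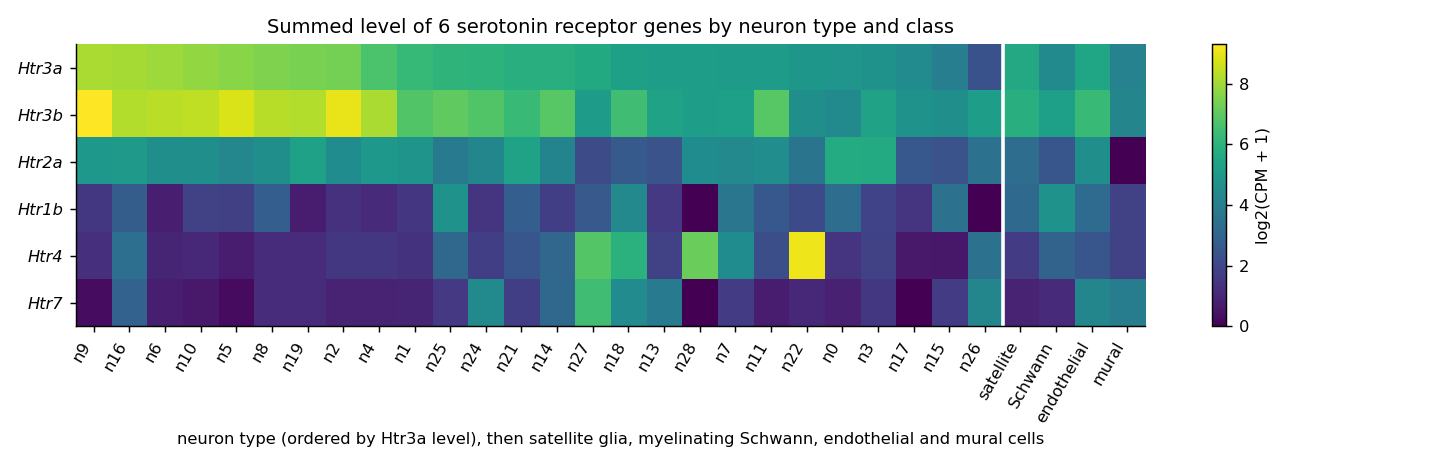
Summed level of 6 receptor genes (rows; colour is log2 of CPM + 1, a log scale) in 26 neuron types ordered by Htr3a and in 4 non-neuronal classes right of the white line. Htr3a and Htr3b share their high types at the left, and Htr4 is brightest in n22. Htr1b is as bright in n25 as in Schwann cells, and Htr7 is brightest in n27, above the vascular cells.

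The proportion of the 2 subunit transcripts was not constant. Neurons held 1.90 Htr3b UMIs per Htr3a UMI (95% counting interval 1.86 to 1.95), and 1.96 ± 0.291 as mean ± SD of 12 pools. The ratio was 3.13 in n2 (2.92 to 3.35), 2.76 in n4 (2.56 to 2.98) and 3.54 in n11 (Spon1, Tmem233, Tacr1; 2.95 to 4.25). It was 1.33 in n6 (1.26 to 1.40), 1.13 in n16 (1.03 to 1.25) and 0.768 in n0 (0.638 to 0.923). Over pools the ratio was 3.14 ± 0.589 in n2 against 1.17 ± 0.248 in n16 (n = 12 pools each), a gap larger than either spread. In n0 the ratio rests on 271 Htr3a and 208 Htr3b UMIs, and in myelinating Schwann cells it was 1.75 (1.24 to 2.48).

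Across the 26 types, Htr3b was the gene whose level was most like Htr3a's among 9829 genes compared (Pearson r = 0.883 on log levels), and Htr3a was the gene most like Htr3b. Next to Htr3a came Exoc5 (r = 0.838) and Ilk (r = 0.815), and next to Htr3b came Slitrk5 (r = 0.862) and Ilk (r = 0.812). The points are types of the same 12 pools and differ in depth, so these coefficients are descriptions and carry no p-value. Of the 2 genes, only Htr3b had a promoter sequence at hand, on rat chromosome 8 in GRCr8, so their positions were not compared.

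**Figure D3:**
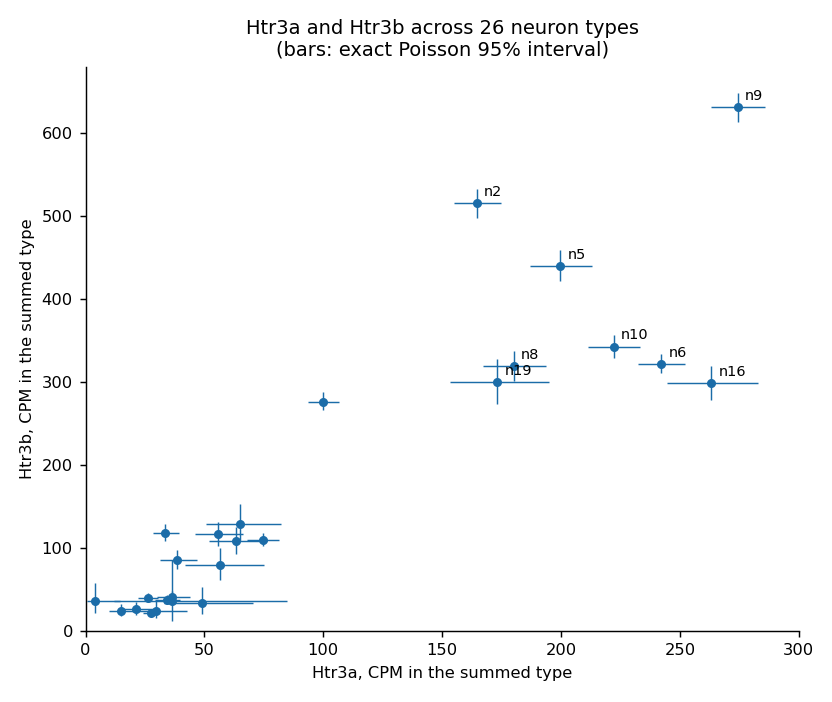
Htr3b level (y axis) against Htr3a level (x axis), both CPM on linear axes, in 26 neuron types; bars are exact Poisson 95% intervals for counting error. Types n9, n2 and n5 lie above n6, n10 and n16. Type n9 is close to n16 in Htr3a, while n2 and n5 lie to the left of n6, n10 and n16.

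Both subunits were also found in the same nuclei. Among 2187 neurons with an Htr3a UMI at 1000 UMIs, 31.5 ± 3.44% also held Htr3b, against 14.1 ± 1.98% of the neurons without Htr3a (mean ± SD, n = 12 pools). The difference of 17.4 ± 3.602 percentage points ran from 10.9 to 22.1 and was positive in 12 of 12 pools (exact sign-flip permutation test, two-sided, p = 0.000488, the smallest it can give; 0.00146 adjusted over 3 pairs). Types differ in both genes, so the comparison was repeated within types: 23.5 ± 4.02% against 15.97 ± 2.26%, a difference of 7.52 ± 4.71 points, positive in 12 of 12 pools (exact permutation p = 0.000488, adjusted 0.00146). Only 3 of 28 pairs of members had enough nuclei for a test. Htr2a with Htr3a differed by -2.15 ± 4.14 points and was higher in 3 of 12 pools (exact permutation p = 0.0991, adjusted 0.149). That pair passed when MR3 was left out, at -2.90 points (exact permutation p = 0.0156, adjusted 0.0234). Within types the Htr2a and Htr3a difference was 0.0594 ± 4.94 points (exact permutation p = 0.967, adjusted 0.967). Htr2a with Htr3b differed by -0.251 ± 4.44 points and was higher in 5 of 12 pools (exact permutation p = 0.854, adjusted 0.854). In unthinned nuclei all 3 pairs were positive in 12 of 12 pools, where depth moves with detection: the differences were 47.9, 10.5 and 11.4 points for Htr3a with Htr3b, Htr2a with Htr3a and Htr2a with Htr3b (adjusted exact permutation p = 0.000488 for each).

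Outside neurons, both subunits were lower in each class compared. Relative to neurons, the Htr3a level was 39.2% in satellite glia, 17.0% in myelinating Schwann cells, 35.9% in endothelial cells and 13.5% in mural cells. For Htr3b the corresponding values were 24.3%, 15.6%, 33.3% and 7.61%. No pool had a higher level of either gene in 1 of these 4 classes than in its own neurons. At 1000 UMIs, 3.71% of satellite glia, 2.42% of Schwann cells and 4.35% of endothelial cells held an Htr3a UMI, at median depths of 1926, 1368 and 1638 UMIs against 2935 in neurons. The largest satellite glia cluster held 7322 CPM of summed neuron markers, against 7504 CPM in the lowest neuron type, n17. The largest endothelial cluster held 5788 CPM, the Schwann clusters 3729 and 3241 CPM and the mural cluster 2281 CPM. Whether the Htr3a and Htr3b UMIs of these classes came from RNA of neurons was not tested.

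Htr1b, the receptor that lowers cyclic AMP and is a target of the triptan migraine drugs, ran the other way. Its level in myelinating Schwann cells, the glia that wrap large axons, was 26.5 ± 15.9 CPM (mean ± SD, n = 12 pools; 69 UMIs in 1470 nuclei), from 6.82 (FL2) through a median of 22.6 to 62.1 (ML3). In neurons it was 4.14 ± 0.855 CPM, from 2.76 (ML3) through 4.12 to 5.38 (MR2). The Schwann level was above the neurons of the same pool in 12 of 12 pools, although several Schwann values rest on 1 to 3 UMIs. The summed Schwann level was 626% of the neuron level, in nuclei where Htr3a was at 17.0%. Its counting interval was 487 to 792%, and here and below such intervals take the neuron level as fixed. At 1000 UMIs, 2.58% of Schwann nuclei and 0.441% of neurons held an Htr1b UMI. Satellite glia stood at 8.12 CPM and endothelial cells at 8.64 CPM, and no test compared classes, since classes came from clustering the same nuclei.

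Among neuron types, Htr1b was highest in n25 (Spp1, Kcna1 and Nefh, the heavy neurofilament of large neurons) at 26.4 CPM (counting interval 17.5 to 38.1) and in n18 (Tafa1, Ccdc172, Ntm) at 19.6 CPM (14.5 to 25.96). The summed level in myelinating Schwann cells was likewise 26.4 CPM, so they did not stand above n25. The jugular-like peptide type n7 (Tac1, Calca, Gfra3) stood at 11.4 CPM (8.71 to 14.7). Over pools these 3 types did not separate: 21.9 ± 24.4 (n = 11), 23.2 ± 27.5 (n = 11) and 16.8 ± 14.4 CPM (n = 12). Jugular-like neurons had 16.3 ± 10.1 CPM and nodose-like neurons 2.97 ± 0.890 CPM. The other 2 members of this subfamily were rare. Htr1d had 57 UMIs and Htr1f 38 UMIs in all neurons, 0.506 ± 0.302 and 0.362 ± 0.262 CPM (n = 12 pools). By summed level, Htr1d led in n24 (Gabrg1, Syndig1, Cdh7; 7 UMIs), n18 (10 UMIs), n25 (4 UMIs) and n13 (Pcdh15, Ndst4, Tafa2; 10 UMIs), at 4.02, 4.01, 3.77 and 3.22 CPM. Htr1f led in n13 with 8 UMIs. These are counts too small to order the types.

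**Figure D4:**
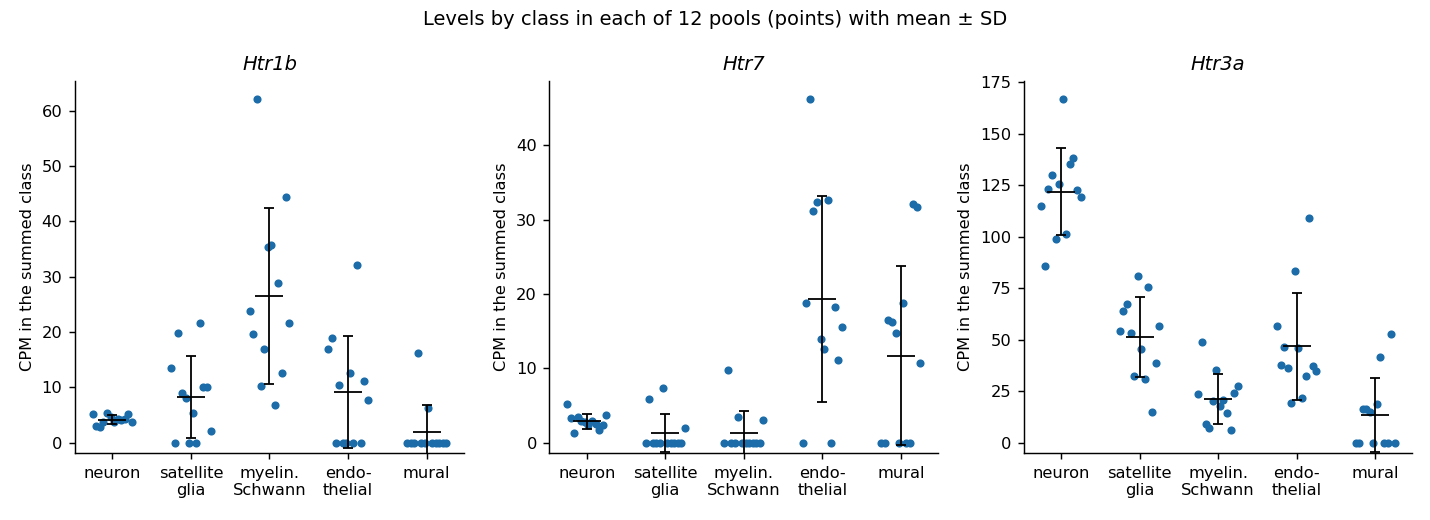
Levels of Htr1b, Htr7 and Htr3a (y axes, CPM, linear) in 5 classes (x axis) in each of 12 pools (points), with mean ± SD; SD bars that reach below 0 are clipped at the axis. Htr3a is highest in neurons in every pool, Htr1b lies highest in Schwann cells, and Htr7 in endothelial and mural cells.

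Htr2a, the receptor coupled to phospholipase C, was measured at 27.04 ± 2.89 CPM in neurons, from 22.3 (MR2) through a median of 28.2 to 31.1 (FL3), a narrow spread. It was highest where the 5-HT3 subunits were low: 52.2 ± 8.55 CPM in n0 and 49.0 ± 12.6 CPM in n3 (n = 12 pools), which differed by less than 1 SD. Next came n21 (Cyct, Pcdh9, Chrna7) at 35.9 ± 22.5 and n19 (Sctr, Doc2b, Cdon) at 35.4 ± 24.6 CPM, again not separated. Over all 26 types the correlation of Htr2a with Htr3a was nevertheless positive (r = 0.441). In n13, n18 and n27, Htr2a stood at 4.19, 5.21 and 3.38 CPM. Endothelial cells had 24.6 ± 12.8 CPM, 87.9% of the neuron level (counting interval 63.1 to 119%), while Htr3a and Htr3b in the same nuclei were at 35.9% and 33.3%. Mural cells held 0 Htr2a UMIs, which allows up to 17.6% of the neuron level. The genes most like Htr2a over types were Vcl (r = 0.773), Plekho2 (r = 0.742) and Nfib (r = 0.734).

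Htr4, which raises cyclic AMP and is a target of prokinetic drugs, was concentrated in few neuron types. In n22 (Hs6st2, Gna14, Mdfic2) it stood at 509 ± 110 CPM (mean ± SD over the 8 pools with at least 10 such nuclei), from 372 through 483 to 679. Of the n22 nuclei, 40.9% held an Htr4 UMI at 1000 UMIs and 64.6% without thinning. Type n28 (Il31ra, Hs6st2, Pkhd1) stood at 145 CPM (counting interval 88.8 to 225), n27 (Poteg, Kcnj6, Cdh9) at 112 CPM (86.3 to 142), n18 at 60.5 CPM (51.2 to 71.0) and n7 at 22.3 CPM (18.4 to 26.7). Nodose-like neurons as a group had 1.93 ± 0.709 CPM. The types n18, n22, n27 and n28, grouped after their values were seen, were 4.53% of neurons and held 69.6% of the Htr4 UMIs, 33.9% of the Htr7 UMIs and 1.23% of the Htr3a UMIs. Of these, n28 was jugular-like and the other 3 met neither rule. The genes most like Htr4 over types were Rgs10 (r = 0.879), Mdfic2 (r = 0.878) and Xylt2 (r = 0.875).

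Htr4 also differed widely between pools. In all neurons it was 9.998 ± 6.33 CPM, with 1.29 in ML3 as the lowest, a median of 9.71 and 22.5 in FL2 as the highest. The share of neurons in the 4 types moved with it: 0.340% in ML3 (5 nuclei), 9.26% in FL2 (121 nuclei) and 9.88% in ML1 (261 nuclei), where Htr4 was 18.6 CPM. Without those types Htr4 ranged from 0.924 to 5.65 CPM, with ML3 lowest and ML1 highest. Within the 4 types Htr4 ranged from 58.0 (FL3) to 281 CPM (FR1), in another order of pools than the share.

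**Figure D5:**
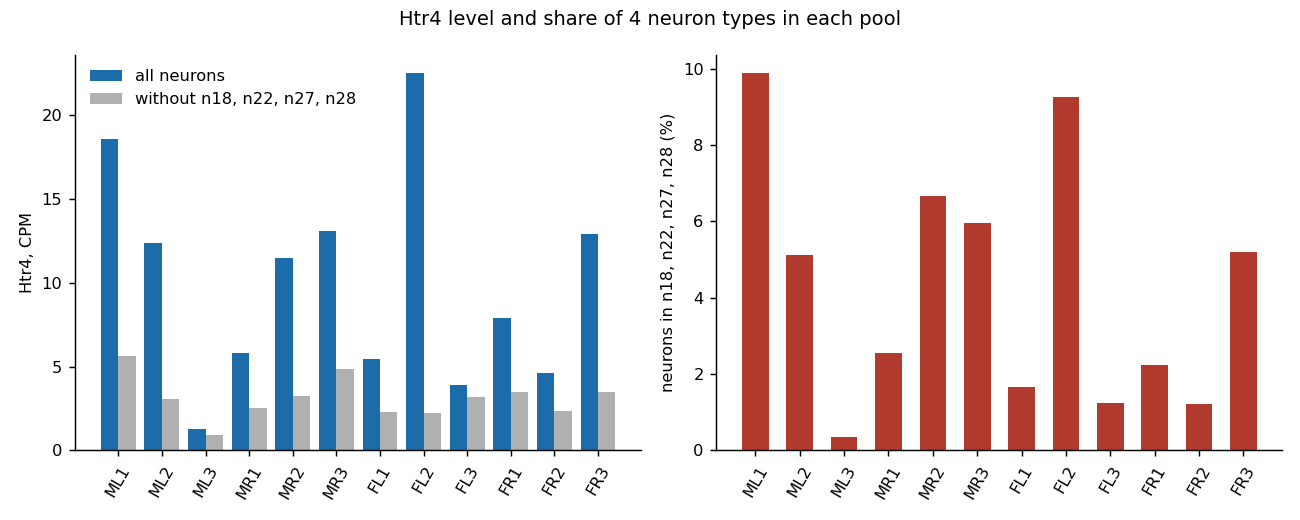
Left, Htr4 level in each pool (y axis, CPM from 0) in all neurons and without types n18, n22, n27 and n28; right, the share of neurons in those types (y axis, percent from 0). In all neurons and in the share, ML1 and FL2 are highest and ML3 lowest; without those types ML1 is still highest and ML3 lowest, while FL2 is at 2.26 CPM.

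Htr7, the other receptor here that raises cyclic AMP, stood at 2.86 ± 0.993 CPM in neurons, from 1.29 (ML3) through 2.78 to 5.14 (ML1). It was highest in n27 at 77.1 ± 38.2 CPM (n = 7 pools with at least 10 nuclei), from 27.5 through 77.3 to 133, on 51 UMIs. Types n18 at 21.2 CPM, n24 at 20.7, n26 at 18.2 and n13 at 13.5 CPM followed, and their counting intervals overlapped. Types n27 and n18 held both receptors that raise cyclic AMP, while n22, the highest in Htr4, held 1 Htr7 UMI in 356 nuclei. Vascular cells held more Htr7 than neurons: 19.4 ± 13.9 CPM in endothelial cells (32 UMIs) and 11.7 ± 12.1 CPM in mural cells (11 UMIs), above the neurons of the same pool in 10 and 7 of 12 pools. The summed endothelial level was 614% of the neuron level (counting interval 420 to 866%).

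One cluster outside the named classes held 348 nuclei and was led by Ddc (which makes serotonin and dopamine from their precursors), Dcc and Dlgap2, with Gata3 and Tacr3 among its 10 leading genes. Htr3a stood there at 138 ± 61.6 CPM, against 122 in neurons, and Htr4 at 126 ± 70.3 CPM, against 9.998 in neurons (n = 12 pools). Htr3b stood at 40.0 ± 27.6 CPM, against 235 in neurons. Its ratio of Htr3b to Htr3a UMIs was 0.308 (counting interval 0.219 to 0.427), below that of neurons at 1.90. The lowest ratio of a neuron type was 0.690 in n27 (0.370 to 1.26), whose interval overlaps. Of the 9 markers listed for sympathetic neurons or chromaffin-type cells, 4 were at least 2-fold higher in this cluster than in the other nuclei, and 2 were among its 10 leading genes. That class was required to have 3 there, a limit set after clusters had been seen, so the cluster is left unnamed. It held 0.818% of the nuclei of ML pools, 1.09% of MR, 0.883% of FL and 0.949% of FR pools.

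No member was called different between left and right ganglia. Of the 8 members, 6 passed the low-count filter and were tested in summed neurons (edgeR quasi-likelihood test, adjusted over 14055 genes). Of these, 0 were called, against 0.135% of all genes called. At an unadjusted p under 0.05 there were also 0 members. The count of all genes at that limit is given below, with the partners and effectors. In CPM of the normalised library, left pools averaged 122 ± 28.4 Htr3a and right pools 122 ± 14.3 (SD over 6 pools), a log2 fold change of -0.0005 ± 0.12 (SE; 95% interval -0.25 to 0.25, edgeR adjusted p = 1.00). Htr3b stood at 242 ± 35.6 and 229 ± 6.53 CPM, a log2 change of -0.08 ± 0.08 (interval -0.25 to 0.08, edgeR adjusted p = 0.883). For both subunits the interval ended near 0.25 on the log2 scale or before it. Htr2a changed by 0.05 ± 0.09 (interval -0.13 to 0.23), Htr1b by 0.15 ± 0.17 (-0.21 to 0.51) and Htr7 by -0.07 ± 0.25 (-0.60 to 0.46). For Htr4 the interval ran from -1.11 to 0.76 around -0.18, an interval that includes a 2-fold decrease.

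By labelled sex, edgeR called 0 of the same 6 members, against 0.0427% of all genes called. At an unadjusted p under 0.05 there were also 0 members, and the count of all genes at that limit is again given below. Male-labelled pools averaged 114 ± 17.6 CPM of Htr3a against 130 ± 23.2 CPM for pools labelled female (SD over 6 pools), log2 change 0.20 ± 0.12 (interval -0.05 to 0.44, edgeR adjusted p = 0.398), and 0.12 ± 0.11 without ML1 and FL1 (adjusted p = 0.646). Htr3b stood at 236 ± 28.1 and 235 ± 25.2 CPM, log2 change -0.002 ± 0.08 (interval -0.17 to 0.16, edgeR adjusted p = 0.996), and -0.07 ± 0.08 without ML1 and FL1 (edgeR adjusted p = 0.740). Htr4 changed by -0.25 ± 0.44 and by 0.15 ± 0.48 without ML1 and FL1, and Htr7 by -0.32 ± 0.25 and -0.03 ± 0.25, so the labelled and the reduced comparison gave no common direction for Htr4. The interaction of side and sex was called for 0 of 6 members and for 0% of all genes by edgeR (578 of 14055 genes at an unadjusted p under 0.05, and 0 called by DESeq2, with 296 at an unadjusted p under 0.05).

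Shares of neurons with a UMI at 1000 UMIs did not pass either. The nearest was Htr2a by labelled sex, at 2.56 ± 0.270% for male and 2.97 ± 0.268% for female labels (SD over 6 pools; two-sided exact permutation p = 0.045, adjusted 0.36 over 8 members). Without ML1 and FL1 the shares were 2.62 ± 0.244% and 2.97 ± 0.300% (exact permutation p = 0.133, adjusted 0.833). Levels were also compared in the type where a member led among types with at least 20 nuclei in every pool. For Htr4, Htr7, Htr1b and Htr1d that was not the type with the highest level. Htr4 was compared in n16 (summed level 9.50 CPM) and not in n22, and Htr7 in n13 (13.5 CPM) and not in n27. Of 16 comparisons, 1 reached the smallest p the design allows. Htr1b in n15 (Rnf220, Nxph1, Slit2) stood at 5.47 ± 4.85 CPM under the male and 15.5 ± 6.42 CPM under the female label (SD over 6 pools; exact permutation p = 0.005, adjusted 0.08), which does not pass. Its pools ran from 0 (ML3 and MR1) to 12.5 (ML2) among male-labelled and from 9.74 (FR3) to 26.9 (FL1) among female-labelled pools, on 19 UMIs in all, and the means were 5.42 and 13.2 CPM without ML1 and FL1 (exact permutation p = 0.0167, adjusted 0.267).

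The other genes of the serotonin system gave no call by side, labelled sex or interaction. Of the 6 other serotonin receptor genes, Htr2b stood at 3.00 ± 0.736 CPM (normalised library, n = 12 pools), Htr5a at 0.944 ± 0.453 and Htr2c at 0.589 ± 0.247, and only Htr2b and Htr5a passed the filter. Of 8 genes that make, carry or break down serotonin, 7 were tested and 0 called. Maoa, which breaks serotonin down, stood at 32.6 ± 3.36 CPM, Maob, a related enzyme, at 9.33 ± 1.34 CPM and Slc18a1, a vesicular transporter, at 7.06 ± 0.903 CPM. Slc6a4, the serotonin transporter of the cell membrane, had 11 UMIs in all neurons. Of 27 partners and effectors (Ric3, a chaperone of channel subunits, G protein subunits, adenylyl cyclases and phospholipases), 26 were tested and 0 called. At an unadjusted p under 0.05 stood 5 of their 27 tested entries by side and 10 by labelled sex, against 913 and 2471 of 14055 genes. Those named by their counts were Gnao1 at 1048 ± 29.3 CPM, Gnas at 873 ± 208 and 837 ± 80.3 CPM in its 2 entries, and Gnaq at 688 ± 55.5 CPM. The median log2 change of the tested entries was -0.05 by side and -0.04 by labelled sex, beside -0.01 and 0.002 over all genes.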

How the data were processed

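Nuclear RNA was counted in single nuclei of 12 pools spread over 8 sublibraries, which are the samples of the deposit. The deposited counts are whole UMI counts per nucleus and gene with no normalisation, and their sums equal the deposited transcript counts in all 36741 nuclei. The pool of each nucleus and the gene symbols were read from the other deposited tables. R 4.3.2, Seurat 4.1.3 and the build mRatBN7.2 are named in the submitters' processing notes. For the aligner and the counting settings, the sources used here give nothing. No per-sample column was left unmapped.

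The members, gene lists, marker lists, tests and alternatives were chosen with earlier results of these data known. A nucleus was kept if it had 300 or more genes and no more than 5% mitochondrial UMIs. Scrublet called 2 doublets and so hardly worked as a caller. Without the sublibrary suffix, 1865 barcodes occur in 2 or more sublibraries and were kept as separate nuclei. Clustering (scanpy 1.11.5, leidenalg 0.10.2, resolution 1, 30 principal components, 20 neighbours) left out serotonin receptor, mitochondrial and Y-linked genes. A neuron cluster needed 3 neuron markers at 1.5-fold over other nuclei, and other classes 3 markers at 2-fold in at least 10% of nuclei. Clusters led by markers of another class, or non-neuronal ones as high in neuron markers as a neuron cluster, stayed unnamed (6195 nuclei). The class of sympathetic neurons or chromaffin-type cells needed 3 markers among the 10 leading genes. Nodose-like or jugular-like types needed 3 such markers at 2-fold. These limits were settled after clusters had been seen.

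UMIs of neurons were summed per pool and fitted in edgeR 4.0.16 (TMM factors, filterByExpr, quasi-likelihood test) on side and labelled sex, and on their interaction, with Benjamini-Hochberg adjustment and calls under 0.05. Fold changes are right over left and female-labelled over male-labelled. DESeq2 1.42.0 was an alternative. Shares were compared after thinning to 1000 UMIs, with exact permutation of 1 factor inside the other (400 relabellings, p no smaller than 0.005) and, for co-detection, exact sign flips over pools (4096). Pools are the replicates, and p-values measure only the spread between them. A pool value of a type needs 10 nuclei. Intervals of levels, shares and UMI ratios are exact (Poisson or Clopper-Pearson) and cover counting error only. Those of a level as a percentage of the neuron level cover the counting error of the class and not of the neurons. Intervals of log2 fold changes are built from the SE of the edgeR fit and include the spread between pools. The genes named are the members, the called genes and the 3 highest of each list, and the 3 genes most alike over types for members with at least 500 UMIs. The scripts were tested on simulated data.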

Additional observations from a re-analysis of the deposited data

Results flagged for a closer look

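Within groups of 6 pools of 1 side or 1 labelled sex, 5 values stood far from the others, of 64 groups checked. The 95% critical values used give about 1 such group in 20 by chance, or 3.2 of 64, and the groups share pools. Htr3b in the neurons of ML3 was 290 CPM (normalised library), with the other male-labelled pools from 213 to 239. The share of ML3 neurons with an Htr3b UMI at 1000 UMIs was 19.8%, against 13.9 to 15.7% in those pools. ML3 also had 1472 neurons and only 5 nuclei of the types high in Htr4. Htr2a in MR2 was 22.2 CPM, below 27.4 to 30.4 CPM in the other right pools. The share of neurons with an Htr3a UMI was 12.4% in FL1, against 8.18 to 9.56% in the other female-labelled pools, and FL1 is the female-labelled pool with Y-linked RNA. It also had the highest median depth of neurons, 3989 UMIs, before the thinning. Htr1f was found in 0.232% of ML2 neurons at 1000 UMIs and in at most 0.0321% in the other male-labelled pools, on 5 unthinned UMIs. The part of these values in the results was not tested beyond leaving out each pool in turn.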

How the results depend on the processing

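Members called by side, labelled sex or interaction stayed at 0 in all alternatives run, as did calls of shares and of leading types, and the lowest edgeR or DESeq2 adjusted p of a member by side or labelled sex was 0.238. The 8 member levels in neurons and the 7 leading levels in types or classes moved by less than 1 SD with nuclei of at least 2000 UMIs. The 19 genes called by side became 75 with DESeq2, 53 without the low-count filter, 2 without ML1 and FL1, 4 with the replicate block and 46 without n18, n22, n27 and n28 (an alternative chosen after seeing the data). Leaving out 1 pool gave 1 (MR3) to 19. The 6 genes called by labelled sex became 357 with DESeq2, 471 without the filter, 39 without ML1 and FL1, 2 and 73 at resolutions 0.5 and 2, 0 without the 5% highest doublet scores and 69 without the 4 types. Leaving out 1 pool gave 0 to 389 (MR1), with 188 without ML3 and 134 without FR3. The cause of these moves was not tested, so the background shares are rough.

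Small fold changes changed sign without any call. Htr3a by side, near 0, became 0.0091 with DESeq2, 0.0040 without the filter, 0.12 without ML1 and FL1, 0.0099 at resolution 2, 0.0057 without the highest doublet scores, 0.022 with the replicate block and 0.00052 without the 4 types. Without ML1 and FL1, Htr2a by side became -0.032, Htr7 by side 0.19, Htr1b by sex 0.081 and Htr4 by sex 0.15. Without the 4 types, Htr4 by side became 0.11, Htr7 by side 0.059 and Htr1b by sex 0.030. Htr3b by sex became 0.017 and 0.022 at resolutions 0.5 and 2. Leaving out 1 pool, the log2 change by side ranged from -0.072 to 0.10 for Htr3a, -0.39 to 0.23 for Htr4 and -0.26 to 0.21 for Htr7, and by sex from -0.040 to 0.071 for Htr3b, -0.12 to 0.086 for Htr1b and -0.64 to 0.049 for Htr4.

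Co-detection was called for 1 pair in the main setting and for 3 without thinning, where depth moves with detection, and for 1 to 2 (without MR3) leaving out 1 pool. The Htr3a and Htr3b difference ran from 7.52 to 47.9 points. The replicate block pairs left and right pools by number. Their deviations correlated at 0.53 for ML2 and MR2 and from -0.16 to 0.09 for the other 5 pairs, so the numbers are not taken to pair the pools. The block called 0 members by side. Depth limits Htr1d and Htr1f, with 57 and 38 neuron UMIs, and pool values of n22, n27 and n28.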
